A study of Mus musculus with 5 samples.

Results

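Mid-lobular hepatocytes are the liver's parenchymal cells that lie between the portal tract and the central vein of a lobule, and they were taken here from 5 droplet libraries of mouse liver. They were chosen by their own expression: a droplet counted as a hepatocyte with at least 5000 unique molecular identifiers (UMIs), 10 to 30% mitochondrial UMIs, and at least 1% of its UMIs from Alb, Apoa1 and Ttr together. Each hepatocyte got a zone score, the log2 ratio of Cyp2e1, Cyp1a2, Oat and Glul UMIs to Cyp2f2, Hal, Sds and Hsd17b13 UMIs with 1 added to each sum, and the cells between the 25th and 75th percentile of the score in their own library formed the middle zone. This gave 2849 cells of 5691 hepatocytes and of 14704 droplets with at least 5000 UMIs. The cells below that range are called the periportal end (1420 cells) and those above it the pericentral end (1422 cells). The middle zone is therefore a range of a continuous score and not a separate cell type.

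The libraries came from C57BL/6J mice, with 1 library per group: an untreated postnatal day 14 liver (P14), an adult control (the control library), and adults at 24, 48 and 96 h after partial hepatectomy (PHx), in which most of the liver is removed and the remnant regrows. Operated mice were 8 weeks old. The labels disagree on the control, since the treatment protocol counts it among the operated mice while its title, source and treatment field do not, and it was treated as the control. The last code in its description also differs from the other 4 (2 against 1), so a batch and the control cannot be told apart. The sex of the mice and how many went into a library are not given, and cells came from perfused livers after removal of dead cells, which leaves out cells lost in that step. With 1 library per group no test was possible, so all intervals below are 95% intervals that cover counting error only, not differences between mice.

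The middle zone held 465 cells in the control library, 586 at 24 h, 359 at 48 h, 387 at 96 h and 1052 at P14. Libraries had 80927744 to 136110607 UMIs in all, and the median cell of the middle zone had 16987 (adult control) to 37484 UMIs (P14). Free RNA, measured in the plateau of empty droplets, amounted to 7.82% of that median in the control library, 3.40% at 24 h, 0.821% at 48 h, 3.72% at 96 h and 1.24% at P14. Between all pairs of libraries 3 hepatocyte barcodes were shared, and 1 of them was in the middle zone of both. Of 10 further hepatocyte markers (Hnf4a, Asgr1, Ahsg and others), none was at 0 in the middle zone of any library.

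Hepatocytes divide their work along the lobule: periportal cells favour urea synthesis, gluconeogenesis and lipid oxidation, whereas pericentral cells favour drug metabolism, bile acid synthesis and glutamine synthesis. Mid-lobular cells are marked by hepcidin, encoded by Hamp, which blocks export of iron from cells, and by Igfbp2, a secreted binding protein for insulin-like growth factors. Cell cycle entry of hepatocytes depends on cyclin D1, encoded by Ccnd1, and after PHx the remaining hepatocytes enter DNA replication and mitosis in a wave.

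Mice carry a pair of hepcidin genes. Hamp lies at chr7:30942368-30944032 and Hamp2 at chr7:30922372-30924681, both protein-coding on the minus strand, and Igfbp2 lies at chr1:72824503-72852474 on the plus strand (GRCm38, GENCODE). The 250 bases before the RefSeq start of each hepcidin gene are shown because both copies are mid-lobular markers yet took different courses after PHx. Capitals mark matches on either strand to GGCGCC, the core of the BMP-response element, and to TTCNNNGAA, the STAT motif. The Hamp window is chr7:30944030-30944279 and the Hamp2 window chr7:30924182-30924431, each given 5′ to 3′ on the minus strand (RefSeq, GRCm38.p6). GENCODE also has a longer Hamp2 transcript that begins upstream of the RefSeq start, so the Hamp2 window lies inside the GENCODE gene span, in the first intron of that transcript.
Hamp: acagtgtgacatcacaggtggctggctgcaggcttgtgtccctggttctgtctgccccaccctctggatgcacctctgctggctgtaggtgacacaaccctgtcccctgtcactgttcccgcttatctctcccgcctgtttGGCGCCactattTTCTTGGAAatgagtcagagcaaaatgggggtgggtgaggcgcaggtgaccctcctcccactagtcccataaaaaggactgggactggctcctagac
Hamp2: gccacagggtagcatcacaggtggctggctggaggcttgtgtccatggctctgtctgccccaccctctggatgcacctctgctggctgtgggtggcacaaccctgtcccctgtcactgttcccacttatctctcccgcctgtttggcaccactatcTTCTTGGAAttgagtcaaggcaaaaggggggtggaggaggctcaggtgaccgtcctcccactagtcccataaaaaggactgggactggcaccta
The windows shared 227 identical bases in 253 alignment columns (89.7%). The Hamp window held both motifs, GGCGCC from 109 to 104 bases and the STAT match from 97 to 89 bases before the start. The Hamp2 window held the STAT match alone, from 94 to 86 bases before the start. Among 32851 promoter windows of this length, 9.59% held GGCGCC and 7.02% held TTCNNNGAA; the motifs do not overlap in these windows. Hamp and Hamp2 are paralogs, and how reads that fit both were counted is not given in the sources used here, so their separate values are uncertain. The similarity of their transcripts was not measured.

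The cuts that bound the middle zone moved with the library. In the control library they lay at -2.58 and 1.91 on the log2 score, at 24 h at -1.29 and 4.52, at 48 h at -0.57 and 5.35, at 96 h at -3.87 and 1.82, and at P14 at 0.55 and 3.65. So the middle zone spanned different absolute scores: 34.3% of all adult control hepatocytes scored above 0, against 70.9% at 48 h and 80.6% at P14. The P14 zone was the narrowest, 3.09 score units, against 4.49 in the control library and 5.90 at 48 h. Cells just inside and just outside a cut had nearly the same score, such as -2.58 and -2.61 at the lower cut of the control library and 3.649 and 3.652 at the upper cut of P14.

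**Figure D1:**
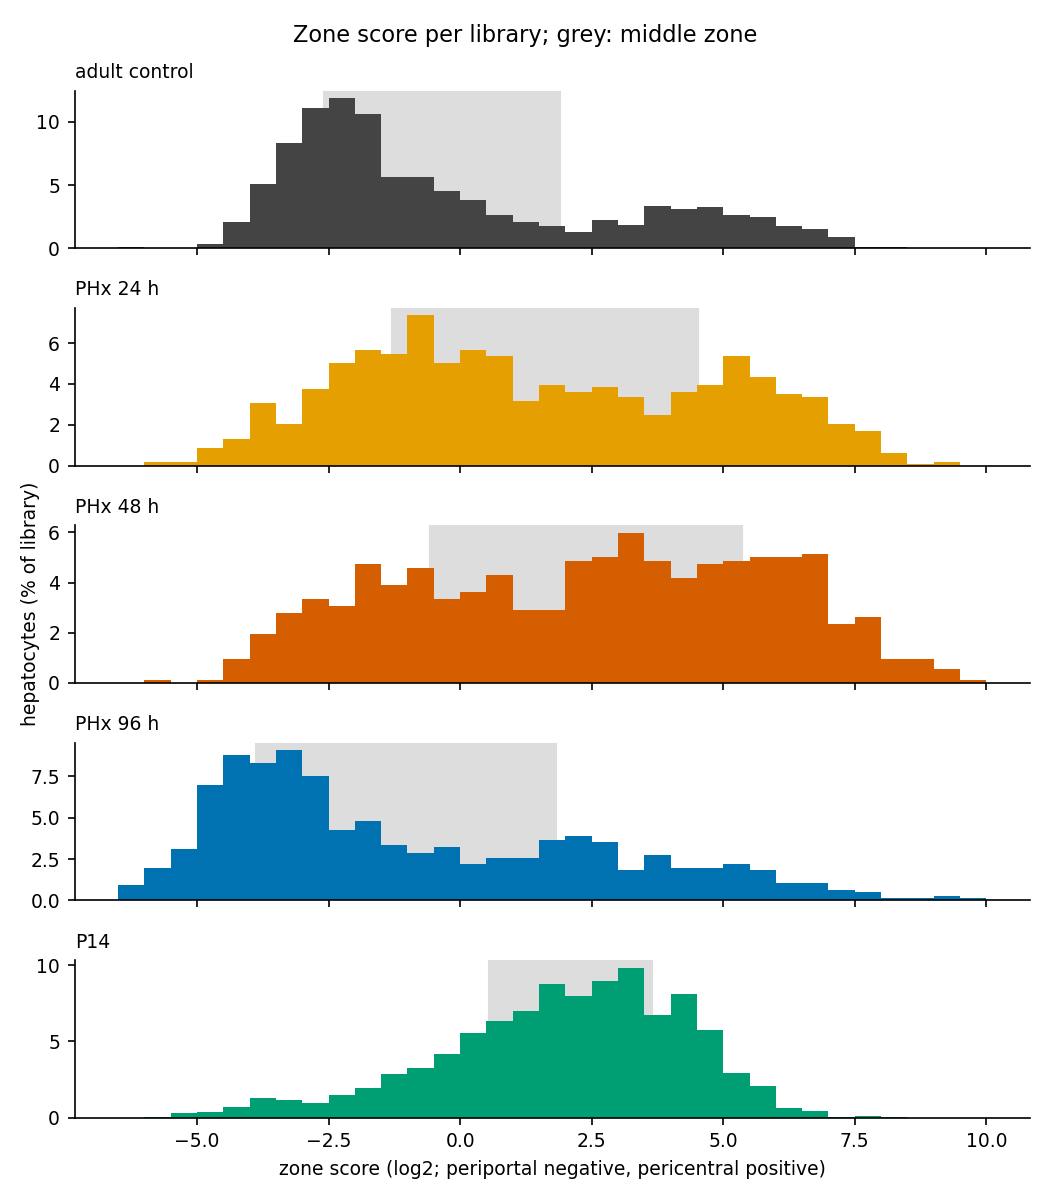
Share of each library's hepatocytes (vertical axis, %) in bins of the zone score (horizontal axis, log2), 1 panel per library, with the middle zone in grey. The adult control and 96 h histograms peak on the periportal side, whereas the grey range of P14 lies wholly above 0, from 0.55 to 3.65.

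Zonated genes that were not part of the score placed these cells between the ends. Of 27 pericentral genes measured in the adult control, all 27 were higher at the pericentral than at the periportal end and 26 had an intermediate level in the middle zone; of 20 periportal genes, 19 were intermediate. The pericentral genes were intermediate for 25 of 27 at 24 h, 24 of 26 at 48 h, 23 of 26 at 96 h and 23 of 26 at P14, and the periportal genes for 20 of 20, 20 of 20, 20 of 20 and 19 of 19. The label of an intermediate position is therefore met by these genes, though genes that follow the score would be intermediate by the choice of the cells. Among genes at least 2-fold apart between the ends, the median pericentral gene sat 30.2% of the way from the periportal to the pericentral level (on the log2 scale) in the control library, 44.9% at 24 h, 51.8% at 48 h, 37.1% at 96 h and 50.5% at P14. The median periportal gene sat 23.3% of that way in the control library, 32.4% at 24 h and 34.7% at 48 h. Its position was 19.03% at 96 h and 49.7% at P14. By the periportal genes the middle zone was thus nearer the periportal end in each adult library. Steep pericentral genes, such as Cyp2a5, a coumarin hydroxylase, remained low: its level was 4.29 CPM (UMIs per 1000000 non-mitochondrial UMIs summed over the cells of a zone) at the periportal end, 12.9 in the middle and 145 at the pericentral end of the adult control. Aldh1b1, a mitochondrial aldehyde dehydrogenase of periportal cells, went the other way with 156, 44.4 and 6.35 CPM.

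Hamp was highest in the middle zone at 24, 48 and 96 h after PHx, but not in the control library or at P14. In the adult control it stood at 313 CPM at the periportal end, 453 in the middle (95% Poisson interval 437 to 470) and 500 at the pericentral end. At 24 h the 3 levels were 1838, 2729 and 1435 CPM, at 48 h 795, 1273 and 1114 CPM, and at 96 h 1314, 1561 and 1091 CPM. The P14 library had almost no Hamp, with 10, 5 and 1 UMIs in the 3 zones, or 0.161 CPM in the middle. All 3 PHx libraries lay above the adult control in the middle zone, by 2.59, 1.49 and 1.78 on the log2(CPM + 1) scale. At 96 h the free RNA carried more Hamp than the cells did, 2170 against 1561 CPM, while at 24 h it carried 1594 against 2729 CPM; the part of free RNA in these levels was not tested.

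Hamp2 followed another course. Its middle level was 17.9 CPM in the control library, 6.96 at 24 h, 4.52 at 48 h, 164 at 96 h and 2.51 at P14. The highest level, at 96 h, belonged to all 3 zones of that library (131, 164 and 170 CPM), so it was not a feature of the middle. In the adult control Hamp2 was higher in the middle than at the periportal end (11.7 CPM) and the pericentral end (9.11 CPM), but few cells held its UMIs: after equal thinning 31 UMIs were left in the middle zone and 97.6% of its cells had none. With a score that left out Cyp2e1 and Cyp2f2, the control library difference from the mean of the ends was -0.68 on the log2 scale, and at 48 h it was -0.88 without barcodes of 20 or more red cell UMIs. Free RNA at 96 h held 223 CPM of Hamp2, again above the cells.

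Igfbp2 had the most regular mid-lobular pattern of the 3 markers, with the highest level in the middle in 4 of 5 libraries. The adult control had 208 CPM at the periportal end, 275 in the middle (262 to 289) and 195 at the pericentral end. The 24 h library had 142, 165 and 121 CPM, the 96 h library 201, 340 and 218 CPM, and P14 1824, 2027 and 1668 CPM. At 48 h it declined from 143 through 122 to 68.9 CPM, so there the periportal end was highest. Its level at P14 was 2.88 higher than in the control library on the log2 scale, the opposite of Hamp at that age. The middle level lay below the control at 24 and 48 h and above it at 96 h, beyond the counting intervals (157 to 173, 116 to 129 and 326 to 354 CPM against 262 to 289).

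The score cut into 8 bins of equal cell number showed where these genes peaked. Igfbp2 was highest in bin 5 of the control library (323 CPM), of 24 h (185 CPM) and of P14 (2076 CPM), and in bin 6 at 96 h (397 CPM), all within the middle zone, which spans bins 3 to 6. The exception was 48 h, with the highest value in bin 1 (146 CPM). Hamp peaked inside the middle zone after PHx, in bin 4 at 24 h (3249 CPM), bin 5 at 48 h (1439 CPM) and bin 6 at 96 h (1963 CPM). In the adult control its highest bin was bin 7 (679 CPM), on the pericentral side, and bin 4 was its lowest (274 CPM).

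Of the other genes known for mid-lobular expression, Ccnd1 was highest in the middle in the control library, at 24 h and at 48 h. Its levels were 21.4, 30.8 and 20.2 CPM in the control library, 260, 425 and 372 CPM at 24 h, and 143, 150 and 122 CPM at 48 h. At 96 h it was higher toward the pericentral end, from 61.8 through 90.2 to 154 CPM, and at P14 from 91.0 through 106 to 121 CPM. Mup3, which encodes a secreted urinary protein, was nearly level in the control library (22228, 23114 and 19797 CPM) and declined along the score after PHx, for example from 10049.5 through 7026 to 5039 CPM at 96 h. Cyp8b1, the sterol 12-hydroxylase that sets the balance of bile acids, was highest in the middle at 48 h (33.5, 41.5 and 25.5 CPM) and at 96 h (187, 197 and 171 CPM), and highest at the periportal end in the other 3 libraries. All 6 genes of this list exceeded the mean of the ends in the control library and at 24 h, against 48.1% and 55.9% of all genes. With so few genes, the other counts were not far from those of all genes. They were 4 of 5 at 48 h (all genes 62.6%), 4 of 6 at 96 h (47.8%) and 1 of 3 at P14 (40.5%).

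**Figure D2:**
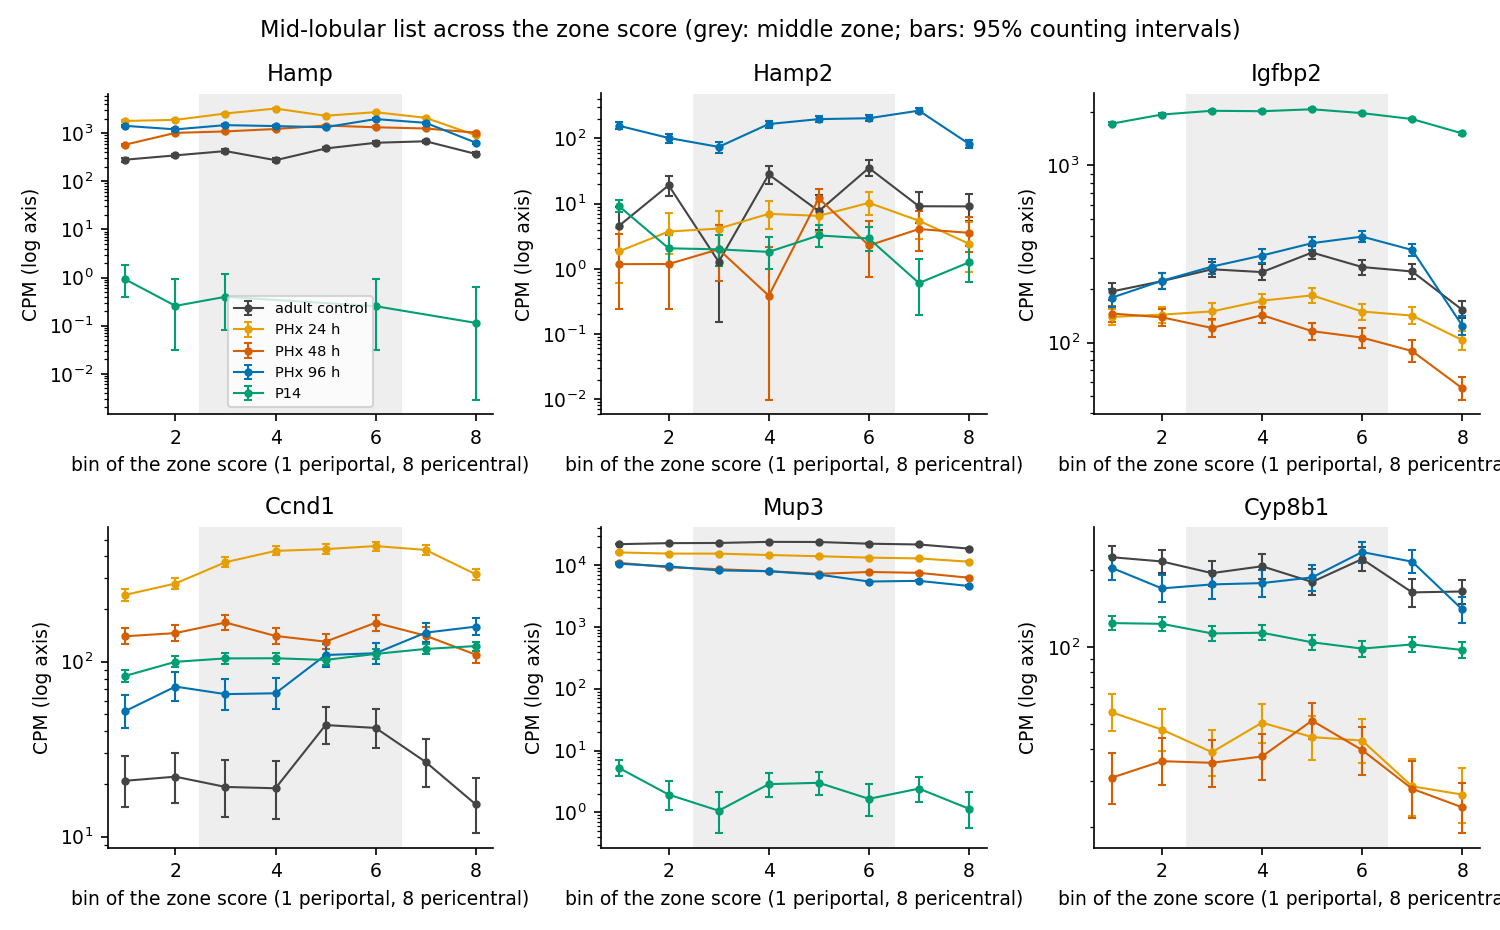
Level (CPM, log axis) of the 6 mid-lobular genes in 8 bins of the zone score, from periportal (1) to pericentral (8), 1 line per library, with 95% Poisson intervals and the middle zone in grey; bins with 0 UMIs are not drawn. Igfbp2 lines have their highest point inside the grey range in all libraries but 48 h, whose highest point is bin 1 (146 CPM).

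Hamp counts varied more between cells of the middle zone than sampling alone gives. After every cell was thinned to 5000 UMIs, the 10% of cells with the most Hamp held 43.8% of its UMIs in the control library, 36.4% at 24 h, 40.1% at 48 h and 36.2% at 96 h. This share is higher for genes with few UMIs: Igfbp2 had 33.3%, 38.2%, 47.4% and 31.1%, above Hamp at 24 and 48 h, and Alb, the abundant plasma albumin gene, 17.1%, 19.8%, 17.4% and 17.2%. The ratio of variance to mean, which sampling alone sets at 1, was 3.78, 11.5, 6.97 and 6.38 for Hamp. It was 1.13, 1.11, 1.16 and 1.26 for Igfbp2, and 13.1, 14.6, 13.8 and 29.1 for Alb, which averaged 76.0 to 235 UMIs per cell, so these ratios are not at like levels. A gene of like level, chosen after its values were seen, was Serpina1b, a protease inhibitor, at 24 h. Hamp averaged 9.01 and Serpina1b 9.18 UMIs per cell there, their ratios were 11.5 and 4.44, and 8.53% and 0.341% of cells had none.

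No gene met the size rule for a mid-lobular peak that recurred across the series. The rule asked for at least 20 CPM and at least 1.2 times the level at each end in at least 4 of 5 libraries, and 0 of 4487 genes (0%) met it; the mirror rule for a trough was met by 0 of 4193 genes (0%). This contrast is the one that chose the cells, so the counts describe the zone and carry no test. Single libraries had peaks: 55 genes in the control library (1.09%), 29 at 24 h (0.565%), 130 at 48 h (2.59%), 65 at 96 h (1.27%) and 6 at P14 (0.136%). Troughs numbered 52 in the control library (1.09%), 13 at 24 h (0.271%), 8 at 48 h (0.176%), 54 at 96 h (1.14%) and 2 at P14 (0.047%). These counts depend on the limits: over the alternatives, from a 1.5-fold limit or 50 CPM to no minimum level, the lowest numbers of peaks were 0 in the control library, 1, 15 and 3 in the PHx libraries by time, and 1 at P14, and the highest were 1771, 1791, 2029, 1593 and 1527. Of the genes with a peak, 8 had it in 2 libraries and none in 3. Named here after their values were seen, they were Igfbp2, Acbd3, Upf3a, Chmp7, Pycrl, Hba-a1, Hba-a2 and Hbb-bs.

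Without a size limit, 13 of the 4487 genes were higher in the middle than at both ends in all 5 libraries, and 5 were lower. How many would be so without any difference between zones was not worked out, so they are not called mid-lobular genes. The 13, also named after their values were seen, were Tm9sf4, Tmx1, Akirin2, Stt3a, Csnk2a2, Serpina3n, Ostc, C8b, Appbp2, Numb, Ubxn8, Smndc1 and Hgsnat. Their excess was small: the median over libraries of log2 middle over the higher end was 0.11 for Tm9sf4, 0.09 for Tmx1, 0.07 for Stt3a and 0.05 for Serpina3n. Serpina3n, a protease inhibitor, had 333, 337 and 282 CPM in the control library and 998, 1033 and 845 CPM at 24 h.

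The genes with a peak differed from library to library. In the adult control they included Ccnd1 (1.44-fold over the nearer end), Igfbp2 (1.32-fold) and Cnot3, a subunit of the deadenylase complex (1.44-fold). At 24 h Tgm1, a transglutaminase (1.53-fold), and Hamp (1.49-fold) led. At 96 h Hspa1b, a heat-shock chaperone, led at 2.54-fold (4.37, 31.2 and 12.3 CPM), followed by Hba-a1 (1.69-fold) and Igfbp2 (1.56-fold). At P14 4 of the 6 genes were the hemoglobins Hba-a1, Hba-a2, Hbb-bs and Hbb-bt, at 5.19-fold to 9.37-fold. Summed red cell genes moved with the zone there, at 40.4, 207 and 51.3 CPM. Barcodes with the highest Scrublet scores, up to an assumed doublet rate, were flagged as doublets. Of these, 43 of 61 at P14 lay in the middle zone, as did 11 of 19 in the control library, 8 of 11 at 24 h, 7 of 9 at 48 h and 12 of 14 at 96 h. By the rule the middle zone held 2849 of 5691 hepatocytes. Without barcodes of 20 or more red cell UMIs, 2 genes had a peak at P14. Very few barcodes were left out by this, since the 3 zones then held 525, 1053 and 526 cells against 527, 1052 and 527. With doublets left out, 6 genes had a peak at P14. The other red-cell sums were 513, 799 and 782 CPM in the control library, 488, 435 and 743 CPM at 24 h, 650, 647 and 1073 CPM at 48 h and 208, 388 and 316 CPM at 96 h, and free RNA held 309 to 6376 CPM.

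Mitosis genes were among those with a peak at 48 h. Of 31 mitosis genes that could be called, 23 had one, against 2.59% of all genes at that time. The other 107 of the 130 genes were outside the mitosis list, and of the 16 genes with the highest fold 7 were in it. No mitosis gene had a peak in another library, where fewer could be called: 1 in the control library, 13 at 24 h, 7 at 96 h and 10 at P14. The count of 23 was 12 with 10 to 20% mitochondrial UMIs, 15 with a score from thinned cells, 15 with at least 50 CPM, 6 with a 1.5-fold limit and 28 at most, with pooled score cuts. Alternatives also gave up to 8 mitosis genes with a peak in the control library (no minimum level), 7 at 24 h (10 to 20% mitochondrial UMIs), 1 at 96 h and 7 at P14 (pooled cuts). Cenpe, the kinetochore motor, led with 22.7, 44.8 and 22.6 CPM (1.98-fold over the nearer end). Cenpf, another kinetochore protein, had 57.7, 97.2 and 53.3 CPM. Knstrn, with the largest median of the mitosis list over libraries, had no peak there (64.6, 63.4 and 28.4 CPM). Aurka and Cdc20 were named after their values were seen. Aurka, the spindle-pole kinase, had 31.5, 50.2 and 33.6 CPM. Cdc20, the activator of the anaphase-promoting complex, had 64.0, 97.2 and 37.5 CPM. All 34 mitosis genes measured at 48 h exceeded the mean of the ends, with a median log2 difference of 0.61 against 0.05 for all 8734 genes. The 37 replication genes did not share this: their median was -0.17, and 27 of them were below the mean of the ends. Rrm2, a subunit of the enzyme that makes deoxynucleotides, had 54.2, 52.5 and 90.3 CPM, highest at the pericentral end.

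Cells were also counted as mitosis-positive or replication-positive when, after thinning to 5000 UMIs, they held UMIs of at least 3 different genes of the respective list. No cell was shallower than that, so none was left out. The mitosis-positive share of the middle zone was 1.51% in the control library (exact binomial interval 0.607 to 3.08), 21.8% at 24 h (18.6 to 25.4), 51.0% at 48 h (45.7 to 56.3), 10.3% at 96 h (7.49 to 13.8) and 15.2% at P14 (13.1 to 17.5). The unthinned shares were 3.23%, 48.8%, 76.9%, 27.6% and 45.4%. The mitosis-positive share in the middle was thus highest at 48 h and above the control in all 4 other libraries. Free RNA held the mitosis genes at 76.2 CPM in the control library, 611 at 24 h, 1442 at 48 h, 316 at 96 h and 598 at P14, against 91.5, 769, 2475, 490 and 661 CPM in the middle zone. The part of free RNA in these shares was not tested.

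The order of the zones differed between the times. At 24 h the mitosis-positive share was higher along the score, from 11.3% at the periportal end through 21.8% to 26.4% at the pericentral end. The middle zone exceeded the periportal end by 10.5 percentage points (Newcombe interval 5.33 to 15.3) and was below the pericentral end by an amount whose interval includes 0 (middle minus pericentral -4.53, -10.7 to 1.37). Without thinning the 24 h shares were 33.6%, 48.8% and 47.9%, so the middle was then the highest by 0.860 points. At 48 h the middle was highest, 51.0% against 43.9% and 36.7%. Within 8 bins of the score, however, the 48 h shares were 33.7%, 53.8%, 53.3%, 59.6%, 56.7%, 34.4%, 25.8% and 47.3%, so bin 6 of the middle lay below the outer bins 2 and 8. It exceeded the pericentral end by 14.3 points (5.41 to 22.7), and the difference to the periportal end, 7.09 points, had an interval from -1.85 to 15.8. At 96 h the share went from 3.13% through 10.3% to 25%, so the middle lay 7.21 points above the periportal end (2.80 to 11.0) and, as middle minus pericentral, at -14.7 (-21.8 to -8.10). At P14 the order was reversed, 18.2%, 15.2% and 9.30%, with the middle 5.91 points above the pericentral end (2.46 to 9.09). With a score that left out Cyp2e1 and Cyp2f2 that P14 difference was -1.13 points. In the adult control 1 of 229 periportal cells, 7 of 465 middle cells and 0 of 231 pericentral cells were positive, and 0 cells, taken as fewer than 3, allow a share of up to 1.30% (exact binomial upper bound 1.58%).

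Against both ends pooled, the middle zone had a mitosis-positive excess of 10.7 points at 48 h (3.42 to 17.8) and 1.29 points in the control library (0.0204 to 2.87). The 48 h excess was 21.9 points with pooled score cuts. The control excess rests on 7 middle cells and 1 end cell and was 0 with 10 to 20% mitochondrial UMIs. The intervals included 0 at 24 h (3.01, -1.61 to 7.61), 96 h (-3.73, -8.39 to 0.914) and P14 (1.45, -1.56 to 4.46). Without thinning the 96 h value became 1.35 points, and with 10 to 20% mitochondrial UMIs, which left 58 middle cells at 48 h and 27 at 96 h, the 48 h middle minus pericentral difference became -1.72 points, the 96 h middle minus periportal difference -0.285 points, and the median log2 of the mitosis genes at 96 h 0.72 against -0.36.

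**Figure D3:**
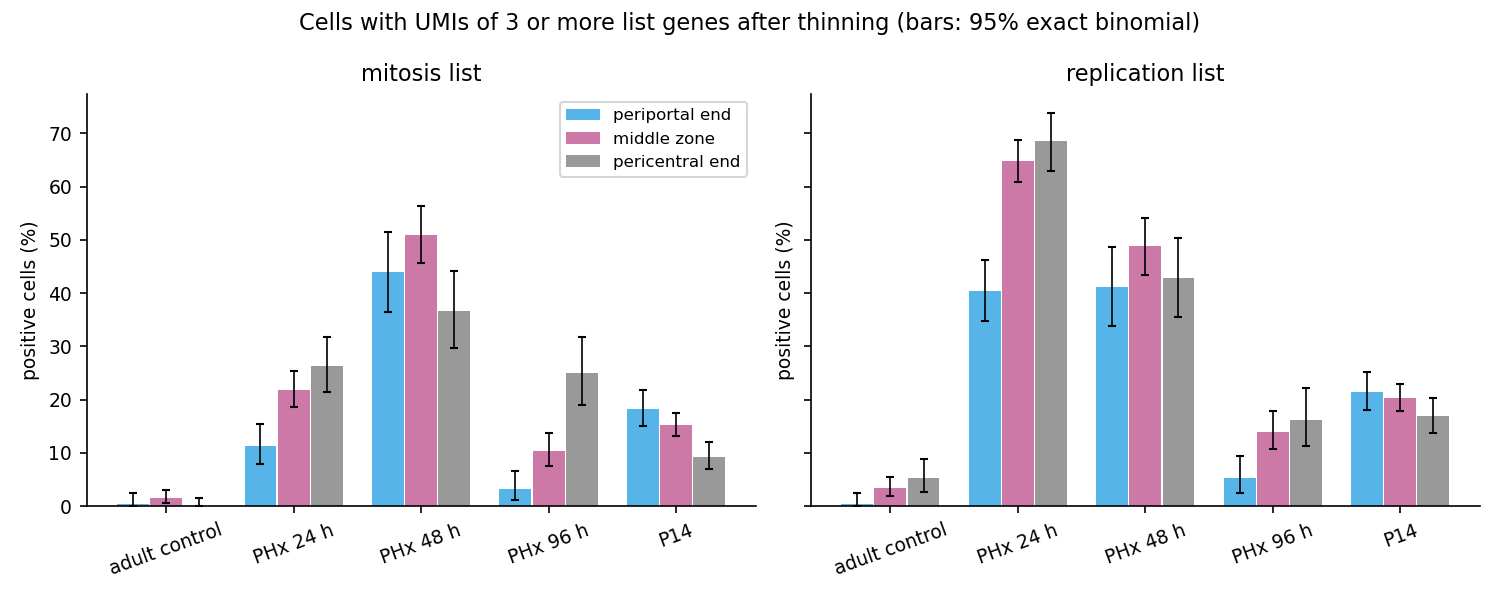
Share of cells (vertical axis, %) positive for the mitosis list (left) and the replication list (right) by zone and library, with exact 95% binomial intervals. The middle zone has the tallest mitosis bar at 48 h (51.0%), while at 96 h the bars are taller toward the pericentral end (3.13%, 10.3% and 25%).

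Replication-positive cells came earlier. In the middle zone they made up 3.44% in the control library (1.98 to 5.53), 64.8% at 24 h (60.8 to 68.7), 48.7% at 48 h (43.5 to 54.0), 14.0% at 96 h (10.7 to 17.8) and 20.3% at P14 (17.9 to 22.9). The highest share was at 24 h, a time at which the middle zone held 1 mitosis-positive cell for about 3 replication-positive ones (128 and 380 cells). Unthinned shares were 37.4%, 91.1%, 94.4%, 61.0% and 90.6%, so their level moved with depth. Free RNA held the replication genes at 208, 1198, 826, 389 and 564 CPM, against 218, 1529, 877, 382 and 508 CPM in the middle zone, so at 96 h and P14 the cells were below it. Its part in the shares was not tested. At 24 h the middle exceeded the periportal end by 24.4 points (17.5 to 31.1), with shares of 40.4%, 64.8% and 68.5% along the score, and the pooled ends by 10.4 points (4.77 to 15.9). Without thinning the shares were 81.2%, 91.1% and 91.1%, and the excess over the periportal end was 9.96 points. In the other 4 libraries the interval of the middle minus the pooled ends included 0. The middle also exceeded the periportal end by 8.75 points at 96 h (3.60 to 13.2) and by 3.00 points in the control library (0.616 to 5.11). The control value was -0.0066 points when 5 genes were required, and without thinning the shares were 37.1% and 37.4%.

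The gene levels are a second view of the same cells and not independent of the shares. How many of all genes exceeded a single end, or both, was not counted. The mean of the ends was exceeded by 55.9% of all genes at 24 h, 62.6% at 48 h, 47.8% at 96 h and 40.5% at P14. At 24 h 30 of 31 mitosis genes and 39 of 39 replication genes were higher in the middle than at the periportal end, and 5 and 8 of them were higher than at the pericentral end. At 48 h 30 of 34 mitosis genes exceeded both ends, and 20 of 37 replication genes were below both. The replication-positive shares at 48 h were 41.1%, 48.7% and 42.8%. Both differences of the middle had intervals that include 0: 7.64 points over the periportal end (-1.29 to 16.3) and 5.97 over the pericentral end (-2.96 to 14.7). Without thinning the shares were 95%, 94.4% and 93.9%, so the middle was then not the highest. At 96 h 30 of 30 mitosis genes exceeded the periportal end and 0 exceeded the pericentral end. At P14 4 of 31 exceeded the periportal end and 31 exceeded the pericentral end. Genes entered these counts with at least 5 CPM in any zone, so the filter itself favours genes high in some zone. At 96 h some passed through the pericentral end only, such as Anln (1.87, 2.31 and 7.46 CPM). Mki67, the proliferation antigen, shows the set: 30.1, 49.4 and 59.6 CPM at 24 h, 109, 131 and 110 CPM at 48 h, 7.80, 31.2 and 54.6 CPM at 96 h, and 68.1, 56.1 and 25.4 CPM at P14.

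**Figure D4:**
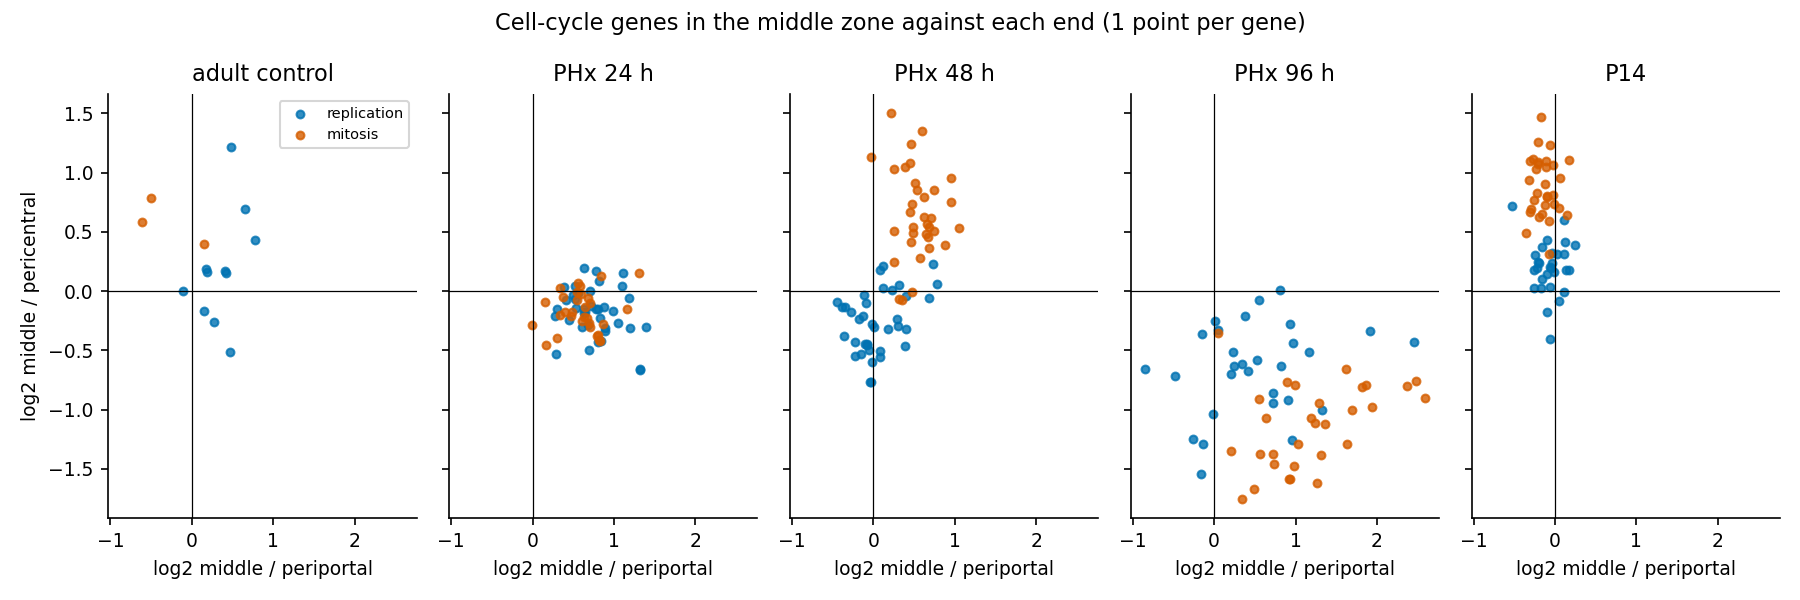
Each point is a mitosis (orange) or replication (blue) gene, placed by its log2(CPM + 1) ratio of the middle zone to the periportal end (horizontal axis) and to the pericentral end (vertical axis), 1 panel per library. At 48 h 30 of 34 mitosis genes lie above 0 on both axes, and at 96 h all 30 lie right of 0 and below 0. Genes drawn had at least 5 CPM in any zone, which some at 96 h reached at the pericentral end only.

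Within the middle zone, mitosis-positive cells were set beside cells negative for both lists. There were 128 and 95 such cells at 24 h, 183 and 57 at 48 h, 40 and 168 at 96 h, 160 and 418 at P14, and 7 and 309 in the control library. Hamp was 4207 CPM in positive and 1712 CPM in non-cycling cells at 24 h, 1209 and 1301 CPM at 48 h, and 930 and 1696 CPM at 96 h. The positive cells thus had more Hamp than non-cycling cells at 24 h and less at 96 h. Id1, a target of BMP signalling like Hamp, was also higher in positive cells at 24 h (141 and 54.4 CPM) and at 48 h (17.9 and 2.169 CPM). Ccnd1 was 470 and 270 CPM at 24 h, but lower in positive cells at 48 h (107 and 194 CPM) and at 96 h (48.8 and 107 CPM). Cdkn1a, which encodes the cell-cycle inhibitor p21, was higher in positive cells in each of the 5 libraries, for example 162 and 68.9 CPM at 24 h and 43.8 and 7.88 CPM at 96 h. Igfbp2 differed less, at 164 and 136 CPM at 24 h, 318 and 353 CPM at 96 h, and 1625 and 2154 CPM at P14. Positive cells were deeper than non-cycling ones at 24 h (medians of 22962 and 18655 UMIs), 48 h and 96 h. At 96 h they also lay further toward the pericentral side (median score -0.55 and -2.35). The part of these differences was not tested.

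Metabolic and secretory lists had medians of -0.37 to 0.22 (log2, middle over the mean of the ends). The acute-phase list had 18 of 20 genes above the mean of the ends in the control library (median log2 0.18) and 19 of 20 at 96 h (0.22), against 48.1% and 47.8% of all genes (median -0.01 at both). It had 17 of 21 at 24 h (all genes 55.9%), 11 of 21 at 48 h (62.6%) and 10 of 16 at P14 (40.5%). Its summed level declined along the score, with 29083, 25903 and 16321 CPM in the control library and 31830, 27909 and 17292 CPM at 96 h. The middle was thus below the periportal end there. Genes that slope along the score can exceed the mean of the ends. Of the periportal genes outside the score, 16 of 20 did so in the control library, 17 of 20 at 96 h and 6 of 20 at 48 h. Mt2, a metallothionein, had 52.1, 73.3 and 21.3 CPM at 96 h, and Apcs, serum amyloid P, had 110, 139 and 92.5 CPM in the control library. The urea and amino acid list had 13 of 17 genes above the mean in the control library (0.12) and 14 of 17 at 24 h (0.07) and at 96 h (0.15), but 8 of 17 at 48 h and 7 of 17 at P14. Its sum declined along the score in each library, for example with 16758, 16202 and 13066 CPM in the control library. Arg1, the arginase that releases urea, had 1426, 1407 and 854 CPM in the adult control, a plateau that included the middle. Cholesterol synthesis genes were above the mean for 17 of 20 in the control library (0.15) but for 6 of 20 at 24 h (-0.05), 3 of 20 at 48 h (-0.18) and at 96 h (-0.15), and 4 of 17 at P14 (-0.07). Their sums were 3446, 3574 and 2952 CPM in the control library. The sums were higher toward the pericentral end at 24 h (4801, 5651 and 6893 CPM), 48 h and P14. At 96 h the sum was lowest in the middle (4789, 4506 and 5465 CPM). Cyp7a1, the rate-limiting enzyme of bile acid synthesis, was low in the middle relative to the pericentral end in each library, with 3.43, 13.4 and 55.5 CPM in the control library and 59.1, 192 and 332 CPM at 48 h.

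The signalling lists had medians near those of all genes. The hepcidin, BMP and iron list had medians of 0.04, 0.02, 0.02, 0.01 and 0.02 in the control library, 24 h, 48 h, 96 h and P14, and the insulin-like growth factor, mTOR and cyclin D list had -0.03, 0.02, 0.01, 0.02 and -0.01. In the median over libraries Hamp2 had 0.67, Hamp 0.38 and Igfbp2 0.32. The next by size were Atoh8, a transcription factor that acts on Hamp, at 0.18, Id1 at -0.18, Ccnd1 at 0.18, Irs1, an insulin receptor substrate, at -0.15 and Rb1, the retinoblastoma protein, at 0.15. The Hamp2 value was that of 48 h, where its middle level was only 4.52 CPM. That value was -0.18 without barcodes of other cell markers and -0.88 without barcodes of 20 or more red cell UMIs. Of the immediate-early and heat-shock genes that tissue handling can induce, such as Fos and Jun, 13 of 15 at 96 h were above the mean of the ends (median 0.21), against 47.8% of all genes. The counts were 7 of 13 in the control library (all genes 48.1%), 11 of 14 at 24 h (55.9%), 12 of 14 at 48 h (62.6%) and 5 of 12 at P14 (40.5%). Their part in the other results was not tested.

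Across the study's conditions the middle zones were compared with the middle zone of the adult control. Of genes at 5 CPM or more in either library, 846 of 9041 (9.36%) were at least 2-fold higher at 24 h than in the control library and 657 (7.27%) at least 2-fold lower. At 48 h these were 849 (9.35%) and 704 (7.76%) of 9078, at 96 h 393 (4.42%) and 214 (2.41%) of 8888, and at P14 741 (8.23%) and 1283 (14.2%) of 9004. The 4 comparisons share the adult control library, so they are given side by side and not as overlaps. Scaling by TMM moved the median of all genes by 0.26 at P14 (from -0.27 to -0.01) and by under 0.05 in the PHx libraries, so P14 values below should be read against -0.27.

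Acute-phase genes, which the liver secretes in inflammation, were higher at 24 and 48 h. At 24 h 14 of 21 were at least 2-fold higher and 0 lower (median log2 1.61), at 48 h 16 of 20 higher and 1 lower (1.98), and at 96 h 3 of 20 were higher and 3 lower (0.05). Of all genes, 9.36%, 9.35% and 4.42% were at least 2-fold higher at these times, and 7.27%, 7.76% and 2.41% lower. Lcn2, which encodes an iron-siderophore-binding protein, had 83.3 CPM in the control library, 4931 at 24 h, 3239 at 48 h, 233 at 96 h and 40.2 at P14. Orm2, an acid glycoprotein, had 74.1, 1654, 2198, 77.1 and 1.64 CPM. Mt2 had 45.7, 3849, 2780, 73.3 and 17.7 CPM. The 3 genes were high in both early PHx libraries and within 3-fold of the control library at 96 h. At P14 8 of 20 acute-phase genes were at least 2-fold lower and 3 higher (median 0.05, all genes -0.27), with Saa1, serum amyloid A, at 14.5 against 2190 CPM. Of all genes at P14, 14.2% were at least 2-fold lower and 8.23% higher.

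Most mitosis genes were below 5 CPM in the control library, so nearly all that passed this minimum did so through the other library, and the sums over all matched genes describe them better than a count. Summed over all 34 matched mitosis genes the middle zone held 91.5 CPM in the control library, 769 at 24 h, 2475 at 48 h, 490 at 96 h and 661 at P14. The 39 replication genes held 218, 1529, 877, 382 and 508 CPM. Mcm6, a subunit of the replicative helicase, had 4.20 CPM in the control library, 125 at 24 h, 59.5 at 48 h, 23.0 at 96 h and 47.8 at P14. Hells, a chromatin remodeller of replicating cells, had 1.29, 73.5, 23.6, 6.94 and 10.4 CPM. The replication sum was thus highest at 24 h and the mitosis sum at 48 h. Among p53 targets, Cdkn1a had 3.23, 113, 80.7, 13.6 and 70.2 CPM, and Gdf15, a stress-induced cytokine, 4.36, 27.0, 20.6, 25.6 and 3.41 CPM.

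In the iron pathway, Id1 had 2.74 CPM in the control library, 80.3 at 24 h, 13.0 at 48 h, 10.8 at 96 h and 3.38 at P14. Tfrc, the transferrin receptor, which imports iron, had 16.6, 52.2, 33.0, 29.8 and 174 CPM, so its highest level was at P14, where Hamp was nearly absent. The list as a whole had 6 of 27 genes at least 2-fold higher and 3 lower at 24 h, 2 and 4 at 48 h, 3 and 0 at 96 h, and 3 and 8 of 26 at P14. Of all genes, 9.36% were higher and 7.27% lower at 24 h, and 9.35% and 7.76% at 48 h. The shares were 4.42% and 2.41% at 96 h, and 8.23% and 14.2% at P14. Several of the list counts were near these shares. In the growth factor list, Igfbp1, a binding protein released in fasting and regeneration, had 23.7, 462, 226, 44.4 and 2009 CPM, and Ccnd1 30.8, 425, 150, 90.2 and 106 CPM. Ghr, the growth hormone receptor, had 570, 242, 208, 483 and 334 CPM, and Igfals, which stabilises circulating insulin-like growth factor, 92.0, 32.9, 45.1, 87.3 and 115 CPM. Both were lower than the control at 24 and 48 h and near it at 96 h.

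Urea, gluconeogenesis, bile acid and fatty acid oxidation lists had medians below 0 at 24 and 48 h relative to the control library, unlike the cholesterol list. The urea and amino acid list had a median of -0.35 at 24 h, -1.0 at 48 h (8 of 17 at least 2-fold lower, 0 higher), -0.03 at 96 h and -0.46 at P14. At 48 h 7.76% of all genes were at least 2-fold lower and 9.35% higher. Cps1, the first enzyme of the urea cycle, did not share the 24 h value, with 3655 CPM in the control library, 5354 at 24 h, 2110 at 48 h, 3432 at 96 h and 2487 at P14. Otc, ornithine transcarbamylase, had 768, 335, 244, 737 and 764 CPM. Gluconeogenesis and glycogen genes had medians of -0.33, -1.09, -0.22 and -0.25, with Gys2, liver glycogen synthase, at 185, 36.1, 31.0, 79.3 and 126 CPM. Bile acid genes had medians of -0.67, -0.90, -0.01 and -0.23, but Cyp7a1 was higher than in the adult control in each other library (13.4, 40.2, 192, 140 and 58.9 CPM). Fatty acid oxidation genes had medians of -0.57, -0.33, 0.25 and 0.56.

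Lipid synthesis set P14 apart. Cholesterol synthesis genes had medians of 0.59, 0.16 and 0.28 at 24, 48 and 96 h but -2.33 at P14. There 18 of 20 were at least 2-fold lower, against 14.2% of all genes. Sqle, squalene epoxidase, had 104 CPM in the control library, 208 at 24 h, 125 at 48 h, 128 at 96 h and 2.22 at P14. Fatty acid synthesis genes had medians of -0.50, -0.89, -0.14 and -3.02, with Scd1, the stearoyl desaturase, at 2921, 2060, 1166, 2212 and 9.94 CPM. Major urinary protein genes, which are near-identical copies and so uncertain one by one, had medians of -0.95, -2.47, -3.31 and -8.75. At P14 none reached 5 CPM, so the 15 genes behind that median passed the minimum through the control library only. Sums describe them better: the 21 matched genes held 90744 CPM in the control library, 37801 at 24 h, 13978 at 48 h, 12398 at 96 h and 2.80 at P14. Genes of the immature liver marked P14: Afp, alpha-fetoprotein, had 431 CPM there against 0.646 to 5.09 CPM in the adults, H19 was 10355 CPM with 0 UMIs in the middle zone of the control library, 24 h and 48 h, and Igf2 was 151 CPM with 0 UMIs in all 4 adult libraries.

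**Figure D5:**
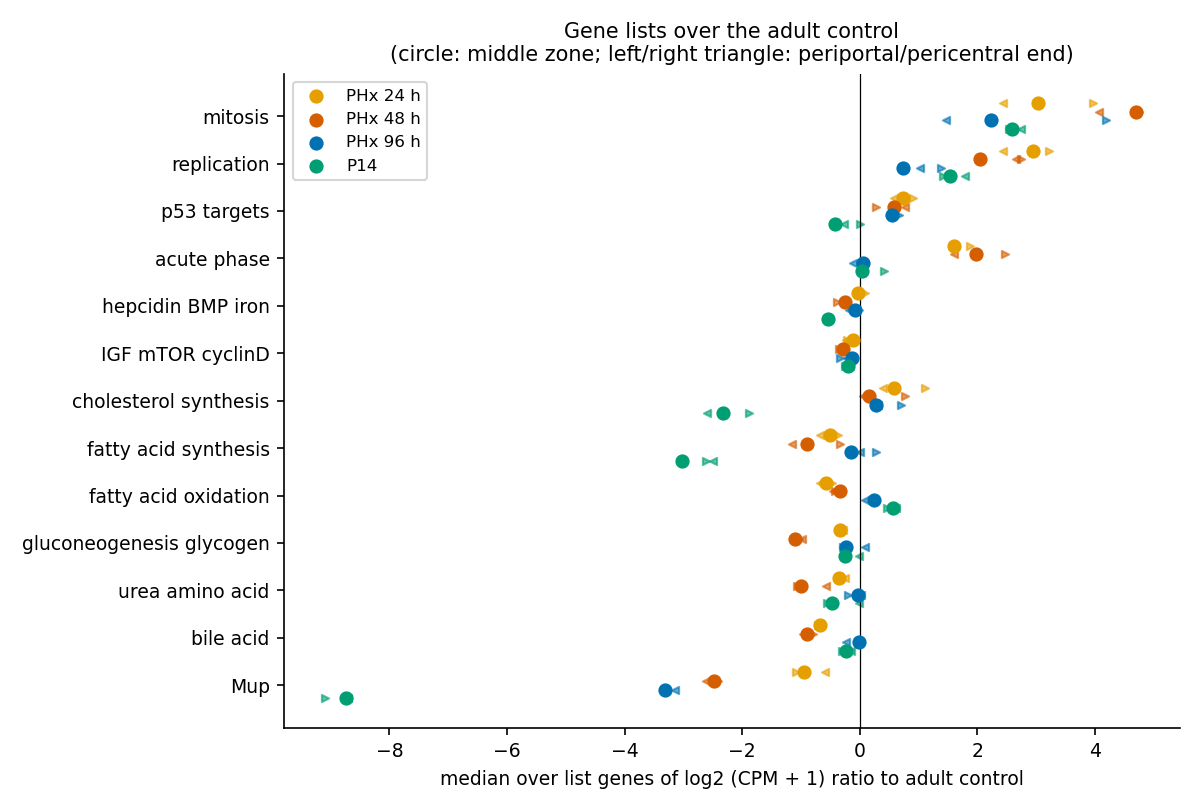
Median over the genes of a list of the log2(CPM + 1) ratio to the adult control (horizontal axis), 1 colour per library, for the middle zone (circles) and both ends (triangles), over genes at 5 CPM or more in either library. Circles and triangles of a library lie close together for most lists, and the widest spread between libraries is in the urinary protein list, from -0.95 at 24 h to -8.75 at P14. The genes behind that P14 value passed the minimum through the adult control only.

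Genes whose difference from the adult control was not the same in the middle and at the ends were ranked by the middle log2 ratio to the adult control minus the mean of both end ratios. Cyp2c29, a pericentral drug-metabolising enzyme from a family of close copies, led at 24 h: its ratio was 2.46 in the middle, -0.45 at the periportal end and 1.06 at the pericentral end. At 48 h its ratios were 3.34, 0.41 and 1.10, and its middle level was 771 CPM against 75.05 in the adult control. Cyp3a11, another drug-metabolising enzyme, had 2.24, 1.94 and 0.75 at 24 h. Cyp2c54, of the same family as Cyp2c29, had 1.40, 0.33 and 0.21 at 48 h. All 3 genes had their largest ratio in the middle in these values; the cut at the upper score was also higher there (4.52 and 5.35 against 1.91), and its part was not tested.

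At 96 h genes of the periportal side led the ranking. Aldh1b1 had ratios of 2.21 in the middle, 1.73 at the periportal end and 0.56 at the pericentral end, with 209 CPM in the middle against 44.4 in the adult control. Ctsc, a lysosomal protease, had 0.82, 0.37 and -1.82. Spp1, osteopontin, had 3.23, 3.15 and 0.71, with levels of 340, 152 and 4.26 CPM along the score. Spp1 is also a bile duct marker. Of the other bile duct genes, Sox9, a transcription factor, also declined along the score in this library (44.3, 36.9 and 14.1 CPM), and Krt19, Krt7, Epcam and Cldn7 had 0 UMIs in its middle zone. The part of bile duct RNA in the Spp1 values was not tested. The middle cuts at 96 h lay lower than in the control library (-3.87 against -2.58), and the part of the cuts was not tested. On the other side, Ccnd1 at 96 h was higher than in the control library by 1.52 in the middle and by 2.87 at the pericentral end.

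At 96 h the ranking also held, higher in the middle, Cyp2c29 (0.84, -0.67 and 0.35 from the middle through the periportal to the pericentral end) and, lower in the middle, Mup11, a urinary protein (-7.46, -7.87 and -5.00), Tmsb4x, an actin-binding peptide (-1.48, -1.38 and 0.25), and the immunoglobulin gene Igkc (-2.18, -1.19 and -1.63). Ugt2b38, a glucuronosyltransferase, at 24 h (-4.33, -3.44 and -3.49) and Hsd17b6, a steroid dehydrogenase, at 48 h (-2.75, -1.52 and -2.29) were also lower in the middle.

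Cell cycle genes, hemoglobins and P14 genes were in the ranking as well. At 48 h Cdkn3, a mitotic phosphatase, had ratios of 5.26 in the middle, 4.73 at the periportal and 3.12 at the pericentral end, while Rrm2 had 3.12, 3.64 and 5.10. Ccna2, cyclin A2, had 3.93, 4.63 and 4.92 over an adult control level of 2.58 CPM in the middle, although its 48 h level was itself highest in the middle (38.0, 53.5 and 37.7 CPM). At P14 Scd1 had -8.06, -6.83 and -6.26, and Ctsc -4.43, -2.80 and -2.38. Cdh1, E-cadherin, had -0.86 in the middle, -0.70 at the periportal end and 1.03 at the pericentral end. The hemoglobins appeared on both sides of the ranking, lower in the middle at 24 h and higher at P14, alongside the red cell sums given above. Hba-a1 was also lower in the middle at 48 h (0.03 in the middle, 1.01 at the periportal and 0.90 at the pericentral end).

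Markers of other liver cells were low in the middle zone. Summed over their lists, endothelial genes had 9.68 to 22.9 CPM, macrophage genes 0.617 to 9.52 CPM, T and NK cell genes 2.35 to 13.2 CPM, and B cell genes 6.25 to 16.5 CPM. Common leukocyte genes had 6.56 to 23.6 CPM. Each of these sums was below that of the free RNA in its library. Stellate cell genes had 4.61 to 46.0 CPM, the highest at P14, where the periportal end had 22.5 CPM, the pericentral end was higher still and free RNA held 24.3 CPM. Monocyte and neutrophil genes were higher at 24 and 48 h, with 118 and 219 CPM against 21.6 to 26.5 CPM in the other libraries, and free RNA held 702 and 1713 CPM at those times. Bile duct genes, Spp1 included, followed the score, with 385, 189 and 18.7 CPM from the periportal to the pericentral end at 96 h. The part of these transcripts in the results was not tested.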

How the data were processed

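Single-cell libraries of liver cells from 5 groups, 1 library each, were made with a 10x v3 kit, per the labels' protocols. The authors deposited 1 matrix of UMI counts per gene and barcode for each library, whole numbers with no normalization and with empty droplets included (31053 genes, 6794880 barcodes each). The headers name software version 3.0.2, and the submitters' processing notes name bcl2fastq 2.17.1.14, Cell Ranger, Seurat 3.1 and the build mm10.

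From these counts, hepatocytes and zones were taken by the stated rule in each library, UMIs were summed per library and zone, and CPM was computed over the total without 13 mitochondrial genes. Ratios are log2 of CPM plus 1. Lists used genes of at least 5 CPM in either arm. For shares, each cell was thinned to 5000 UMIs (seed 1); intervals are exact binomial, Newcombe or exact Poisson at 95%. PCR duplicates are removed by UMIs, and intervals and limits from 3 counts cover counting error only. Free RNA came from barcode ranks 20001 to 60000. Doublets were scored with Scrublet (scanpy 1.11.5; 0.8% per 1000 barcodes, at most 8%) and kept, with their removal as an alternative. The size rule was also run on simulated sums with counting error only and no slope between the ends. That run does not show how the 1.2-fold limit treats genes that slope along the score.

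The members and gene lists were chosen with earlier results of these data known, and no result supports that choice. Genes were named by a rule: the mid-lobular list, the largest peaks and up to 4 genes per list by size of the ratio. It also took 4 genes at each end of the ranking against the adult control. Exceptions marked in the text, such as Aurka and Cdc20, were named after their values were seen. No test was run, since groups held 1 library. The alternatives were other scores and cuts, UMI, mitochondrial and cell filters, free RNA subtraction, TMM factors (edgeR 4.0.16), pseudocount, fold and level limits, and leaving out each library. Tools were Python 3.11.15, numpy 2.4.6, scipy 1.17.1 and R 4.3.3.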

Additional observations from a re-analysis of the deposited data

Results flagged for a closer look

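The difference in the mitosis-positive share between the middle zone and the pericentral end did not have the same sign in all libraries, with intervals that leave out 0 on both sides. It was 14.3 percentage points at 48 h after PHx, 5.91 points at P14 and -14.7 points at 96 h. The 48 h value was -1.72 with 10 to 20% mitochondrial UMIs, and the P14 value -1.13 with a score without Cyp2e1 and Cyp2f2. The 96 h value stayed below 0 in all 13 alternatives. The difference between libraries was not tested, since each group is 1 library.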

How the results depend on the processing

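No paired analysis was possible because each group is 1 library, so no result comes from a test and a replicate block could not be fitted. The count of genes with a recurrent peak or trough was 0 without each library in turn. It was 38 and 10 with no minimum level, and 8 and 3 when 2 of 5 libraries sufficed. For shares (middle minus both ends pooled, points), pooled score cuts gave mitosis values of 21.9 at 48 h, 8.91 at 96 h and 5.57 at P14. With 10 to 20% mitochondrial UMIs, which left 27 to 467 middle cells, mitosis in the control library was 0 and replication was -2.22 in the control library and 10.8 at 96 h. Without thinning, mitosis was 8.05 at 24 h and 1.35 at 96 h, and replication -5.41 in the control library, -3.60 at 96 h and -2.58 at P14. The cause was not tested. Single values past their limit (an interval without 0, or 1.2-fold) that changed sign were as follows. With 10 to 20% mitochondrial UMIs, mitosis middle minus pericentral at 48 h was -1.72 and middle minus periportal at 96 h -0.285, the mitosis list median at 96 h was 0.72, and the tissue-handling list over the control library at 48 h was -0.13. Pooled cuts gave -0.29 for the pericentral list over the control library at 48 h. Hamp2 at 48 h was -0.18 without barcodes of other cell markers and -0.88 without red cell barcodes. A score without Cyp2e1 and Cyp2f2 gave -1.13 for mitosis middle minus pericentral at P14 and -0.68 for Hamp2 in the control library. Requiring 5 genes gave -0.0066 for replication middle minus periportal in the control library. Values within their limit also changed sign: with 10 to 20% mitochondrial UMIs, replication middle minus pericentral went from 5.97 to -10.3 at 48 h and from -2.19 to 18.5 at 96 h, and the replication list median at 96 h from -0.19 to 0.85. The last 2 scores and filters named (red cell barcodes, the shorter score) and the 2-of-5 rule were chosen after seeing the data. Of 1166 list medians of the middle over the ends under alternatives, 1142 moved by less than the limit set for them, and of 957 medians over the control library 875 did. Of 191 values of the mid-lobular marker genes 143 did, 45 moved further and 3 whose main value was past 1.2-fold changed sign. Among main values within 1.2-fold, Hamp in the control library and Hamp2 at 96 h also changed sign, to -0.07 and -0.27 at the lowest. Few UMIs limit the precision of Hamp2 outside 96 h and of Hamp at P14.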
